A study of Homo sapiens with 6 samples.

Results

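The genes described here are 46 genes of the lysosome, listed by name: 13 proteases, 16 glycosidases and sulfatases, 9 genes of lipid handling, 6 membrane proteins, and the transcription factors TFEB and TFE3. They were matched by symbol among the 61552 genes in the files, and all 46 were found. The RNA came from NCI-H520, a human cell line established from a squamous carcinoma of the lung and labelled wild type, grown in medium with 15% fetal bovine serum. Cells received phosphate-buffered saline (PBS) or 2 µM cisplatin for 48 h, with 3 libraries in each group; cisplatin is a platinum compound that forms DNA crosslinks. Both groups come from the same line, so the comparison describes this line only.

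Lysosomes are acidic compartments in which proteins, sugar chains and lipids are taken apart. Most of the enzymes are soluble, carry a mannose 6-phosphate tag and are delivered from the Golgi, whereas heavily glycosylated membrane proteins such as LAMP1 line the inside of the organelle. TFEB and TFE3 are related transcription factors that the nutrient-sensing kinase complex mTORC1 holds in the cytoplasm; when released they enter the nucleus and bind a DNA element found near many lysosomal genes. The mRNA level of TFEB or TFE3 does not report that movement.

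After cisplatin, 25 of the 45 tested lysosomal genes rose and 2 fell, and the other 18 did not pass the test. The largest increases were those of cathepsin F (CTSF), which rose 2.20-fold, the cholesterol carrier NPC2 (2.17-fold), the sialidase NEU1 (2.12-fold) and progranulin (GRN, 2.01-fold). The membrane proteins LAMP1, LAMP2, SCARB2, MCOLN1 and CLN3 did not pass, and neither did TFEB. Calls here rest on edgeR's quasi-likelihood test over 15063 genes with a Benjamini-Hochberg adjusted p under 0.05. Among all tested genes, 18.9% were called higher and 19.3% lower (38.2% in either direction), against 25 and 2 of 45 here. CTSF, NPC2, NEU1 and GRN were the 4 called with at least a 2-fold increase, which 3.47% of all tested genes showed. The median log2 fold change (cisplatin over PBS) was 0.30 for the lysosomal genes and -0.000347 for all tested genes. In 28 of the 45 every cisplatin library lay above every PBS library and in 2 below, arrangements seen in 25.2% and 24.5% of all tested genes. The protease gene CTSS was not tested, with at most 1 count in any library.

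**Figure D1:**
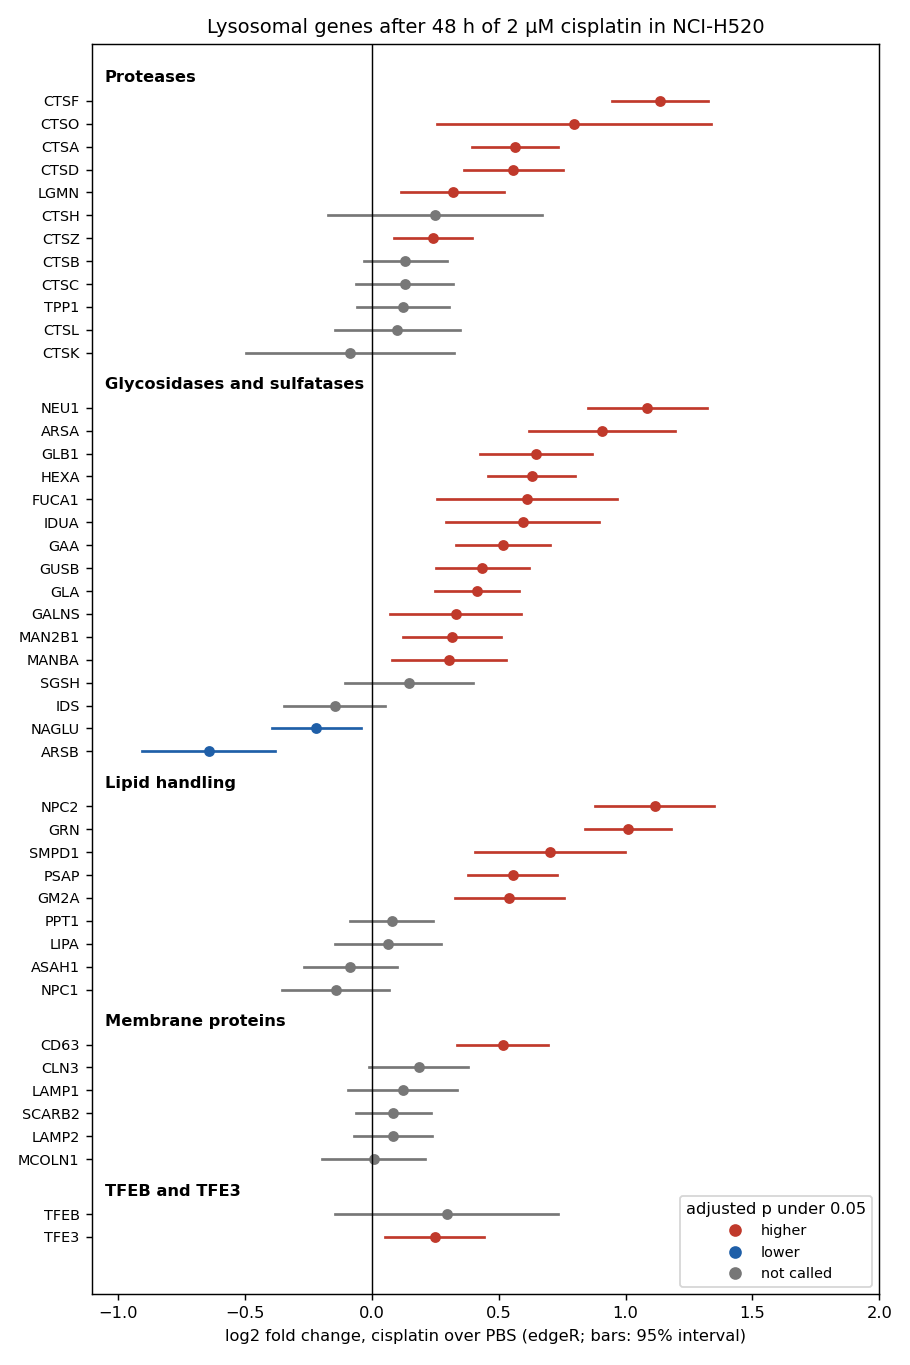
Log2 fold change of each tested lysosomal gene, cisplatin over PBS, grouped by role; points are edgeR estimates from 3 libraries per group, bars are 95% intervals, and colour gives the call at an adjusted p of 0.05. CTSF, NEU1, NPC2 and GRN lie furthest to the right, ARSB furthest to the left, and 5 of the 6 membrane proteins have intervals that include 0.

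Total expected counts ran from 9121180 to 16724285 per library, and the first principal component, 58.9% of the variance, separated the groups. Whether the replicates were grown apart is not said in the labels, and the p-values then reflect the spread among these 6 libraries alone, which may be technical. The epithelial marker EPCAM and SOX2 were abundant, while the squamous markers TP63, KRT14, DSG3 and PKP1 had at most 5 counts in any library. Of 7 epithelial markers 5 rose, of 8 squamous markers 4 were tested and TRIM29 rose, and of 6 endothelial markers CLDN5 alone was tested and was not called. Of those 5, KRT8 alone kept its call under every alternative that tests for any change. CLDN4 lost it with DESeq2 (0.144) and KRT18 with the length correction described below (0.102). EPCAM was lower in every cisplatin library but was not called (-0.12, edgeR adjusted p = 0.194). With the length correction it was called lower (-0.25, 0.0109). Because macrophages and fibroblasts are rich in lysosomes, their markers were examined. Of 10 macrophage and monocyte markers, 8 were too low to test, PTPRC, AIF1 and TYROBP had 0 counts in all 6 libraries, LYZ rose and CD14 fell; the sum of the 10 was 2.23 to 2.65 CPM (read counts scaled to a common library size) under PBS and 4.01 to 4.78 under cisplatin. Of 9 fibroblast markers, COL1A1 and THY1 rose and 7 were too low to test, with COL3A1 at 0 in every library. The sum of these 9 was 11.7 to 16.3 CPM under PBS and 24.6 to 26.9 under cisplatin. LYZ averaged 0.968 CPM under PBS and 3.64 under cisplatin, CD14 1.06 and 0.515, and COL1A1 12.7 and 22.3. The rise of the 2 sums thus lay mainly in LYZ and in COL1A1. CD14, at 5 to 15 counts per library (edgeR adjusted p = 0.0467), lost its call whichever library was left out and with DESeq2 (0.278). THY1, at 5 to 19 counts, lost it without PBS replicate 3 (0.0528), without cisplatin replicate 1 (0.0652) and with DESeq2 (0.0685), and on log2(TPM + 1) limma called neither THY1 (-0.000329) nor COL1A1 (0.28, adjusted p = 0.256). The part of these markers in the lysosomal results was not tested. In bulk libraries such as these, a change in the mix of cells and a change in RNA per cell cannot be told apart.

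TFE3 (ENSG00000068323; chromosome X, 49028726 to 49043486 in GRCh38) had 32.6, 29.2 and 34.0 CPM under PBS and 38.6, 38.8 and 36.5 under cisplatin. Every cisplatin library lay above every PBS library, and the log2 fold change was 0.25 ± 0.090 (± standard error, as for every fold change here; edgeR adjusted p = 0.0445). This call rests close to the threshold: leaving out PBS replicate 1 or 2 ended it (adjusted p = 0.0727 and 0.108), as did leaving out cisplatin replicate 1 (0.124), 2 (0.107) or 3 (0.0652), and so did DESeq2 (0.108). TFEB (chromosome 6, 41683978 to 41736259) was scarcer, at 6.70, 3.88 and 4.88 CPM under PBS and 5.28, 6.32 and 6.73 under cisplatin. Its groups overlapped (0.30 ± 0.20 on the log2 scale, edgeR adjusted p = 0.270), with a 95% interval of the fold from 0.906 to 1.66. In TPM, a level corrected for transcript length that allows genes to be compared, TFE3 averaged 13.0 and TFEB 3.07 over the 6 libraries.

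TFEB and TFE3 recognise the E-box CACGTG, and near lysosomal genes its extended form with GT before and AC after it, known as the CLEAR element. Promoter windows from RefSeq (GRCh38.p14), 250 bases before to 50 after the transcription start, were at hand for 33 of the 46 genes and were searched for both and for TCACGTGA. Each of the motifs is its own reverse complement, so a match counts for both strands, and each longer motif contains the shorter. The 33 genes had 48 windows, and a gene counted if any of its windows held the motif. CACGTG was found in 11 of the 33 genes (33.3%) and in 8.77% of all 27305 gene symbols with a window, or 7.26% of all 35116 windows. These shares are a description and were not tested. TCACGTGA was found in 6 genes (18.2%, against 1.18% of all symbols and 0.980% of windows), and the CLEAR element in 3, GAA, GALNS and MCOLN1 (9.09%, against 0.421% of symbols and 0.353% of windows). The 11 genes were not only those that rose: CACGTG stood in the windows of 7 of 19 genes called higher, of ARSB, the only gene called lower that had a window, and of 3 of 13 not called.

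The stretches below lie upstream of the RefSeq start and outside GENCODE 29 exons (those of CTSF and NPC2 within a GENCODE intron, since GENCODE places the start of these genes further upstream); they are shown 5′ to 3′ on the gene's strand with each CACGTG in capitals. They show genes that rose with an E-box (GAA, NEU1, CTSF) and without one in the windows searched (NPC2), and membrane protein genes with E-boxes that were not called (LAMP1, MCOLN1).
GAA, chr17:80101486-80101555, plus strand, 95 to 26 bases before the start: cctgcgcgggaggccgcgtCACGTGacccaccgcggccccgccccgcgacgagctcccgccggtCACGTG
NEU1, chr6:31862921-31862981, minus strand, 160 to 100 before: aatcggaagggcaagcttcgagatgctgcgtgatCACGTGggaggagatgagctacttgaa
CTSF, chr11:66568646-66568716, minus strand, 110 to 40 before: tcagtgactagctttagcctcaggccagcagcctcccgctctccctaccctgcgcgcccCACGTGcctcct
NPC2, chr14:74493612-74493682, minus strand, 170 to 100 before: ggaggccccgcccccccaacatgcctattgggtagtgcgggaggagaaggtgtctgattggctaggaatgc
LAMP1, chr13:113297039-113297219, plus strand, 200 to 20 before: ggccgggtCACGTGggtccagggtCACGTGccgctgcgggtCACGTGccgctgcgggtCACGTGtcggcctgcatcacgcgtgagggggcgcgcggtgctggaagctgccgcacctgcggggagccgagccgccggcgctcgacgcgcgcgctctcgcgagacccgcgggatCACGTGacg
MCOLN1, chr19:7522534-7522616, plus strand, 90 to 8 before: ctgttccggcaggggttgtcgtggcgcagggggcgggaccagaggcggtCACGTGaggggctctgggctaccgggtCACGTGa
LAMP1 has 6 CACGTG in its whole window, the most of these genes, and 5 lie in the stretch shown; GAA, CTSF and MCOLN1 have 2 each, and the other CACGTG of CTSF, starting at -123, lies outside its stretch. The NPC2 windows hold none. A match describes letters only and does not show that a factor binds there.

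Of the 13 proteases, 12 were tested, 6 rose and 0 fell. Among all tested genes 18.9% were called higher and 19.3% lower. CTSF, a cysteine protease of the papain family, had 25.2, 24.1 and 22.0 CPM under PBS and 50.6, 54.2 and 51.5 under cisplatin. The groups were far apart (1.14 ± 0.088 on the log2 scale, edgeR adjusted p = 6.1e-06). CTSA, which also shields NEU1 and the β-galactosidase GLB1 from degradation, went from 66.8, 60.3 and 58.2 to 90.1, 93.9 and 89.7 CPM (0.57 ± 0.078, edgeR adjusted p = 2.3e-04). The aspartic protease CTSD had 134, 122 and 118 CPM under PBS and 187, 162 and 201 under cisplatin (0.56 ± 0.089, edgeR adjusted p = 5.5e-04). In both genes every cisplatin library exceeded every PBS library. CTSD shares 41.7% of its exonic bases with a read-through gene on the same strand, ENSG00000250644, which averaged 2.44 CPM under PBS and 4.69 under cisplatin, and CTSA shares 17.7% with NEURL2 on the opposite strand, at about 0.5 CPM in either group.

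CTSZ, a carboxypeptidase and the most abundant protease by TPM, rose by less: 184, 183 and 203 CPM under PBS against 226, 219 and 229 under cisplatin (0.24 ± 0.071, edgeR adjusted p = 0.0177). CTSO was rare, at 1.45, 1.84 and 1.60 CPM under PBS and 3.59, 2.49 and 2.64 under cisplatin, which rest on 13 to 44 counts per library (0.80 ± 0.25, edgeR adjusted p = 0.0241). LGMN, the asparaginyl endopeptidase that processes cathepsins, went from 41.6 ± 3.67 to 51.8 ± 3.84 CPM (SD, n = 3; edgeR adjusted p = 0.0174). These 3 calls were less secure. Without cisplatin replicate 1 all of them were lost (adjusted p = 0.0677 for CTSZ, 0.101 for CTSO and 0.0811 for LGMN), leaving 3 proteases called. CTSZ was also lost without PBS replicate 1 (0.0602) or cisplatin replicate 3 (0.0569), CTSO without PBS replicate 1 (0.0606) or 3 (0.0646), and LGMN without PBS replicate 3 (0.0557).

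The other proteases did not pass: CTSB (0.13), CTSC (0.13), TPP1 (0.12), CTSL (0.10), CTSH (0.25) and CTSK (-0.083) on the log2 scale. CTSB, the cathepsin often measured in tumours, had 83.3, 76.9 and 80.7 CPM under PBS and 92.5, 87.8 and 83.7 under cisplatin. Its libraries did not overlap, but the difference was small against its error (edgeR adjusted p = 0.186), with a 95% interval of the fold from 0.979 to 1.23. CTSL stood at 16.0 ± 0.679 and 17.0 ± 1.78 CPM with overlapping groups, and its sign turned after a correction for transcript length. CTSK, a collagen-degrading cathepsin of bone, was low, at 5.02, 6.58 and 4.95 CPM under PBS and 4.58, 6.41 and 4.81 under cisplatin, and its sign differed between alternatives.

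**Figure D2:**
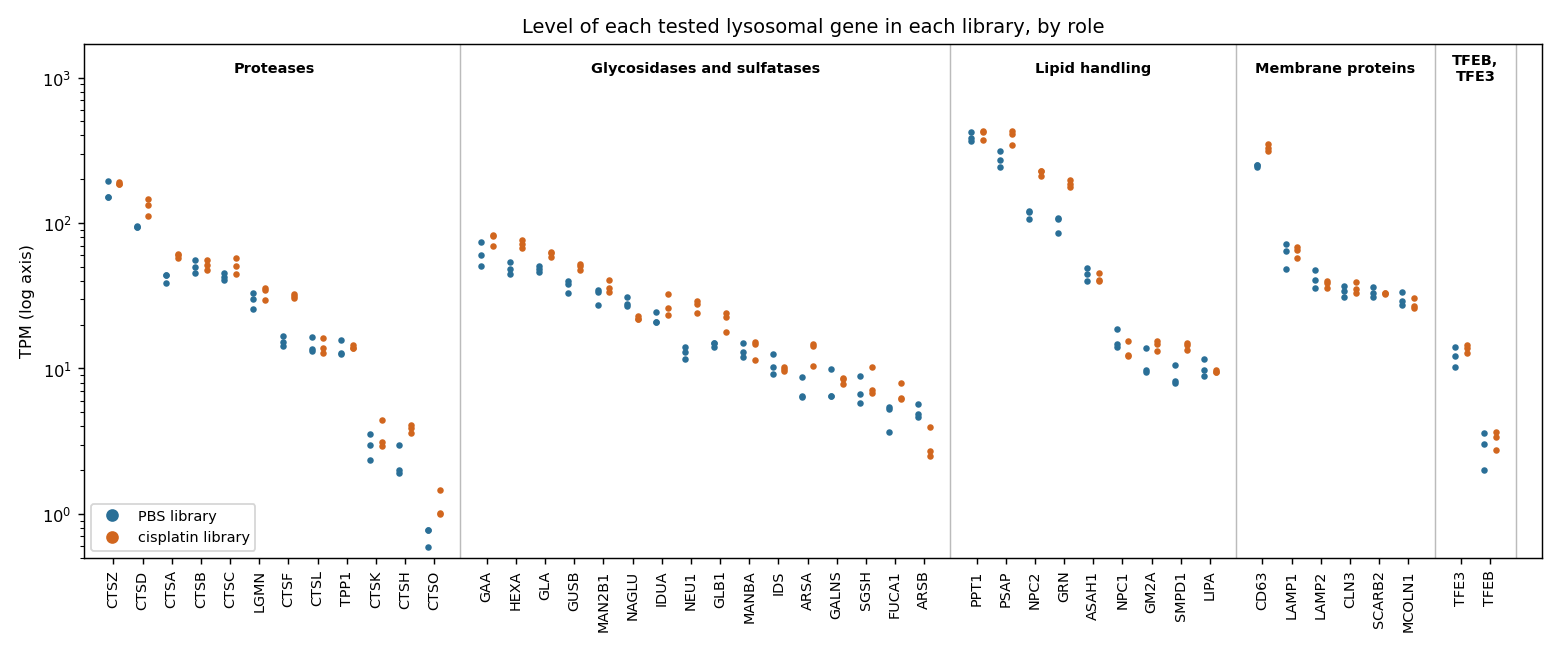
TPM of each tested lysosomal gene in each library on a log axis, by role and in order of mean level; blue points are the 3 PBS libraries and orange points the 3 cisplatin libraries. PPT1, PSAP, CD63 and CTSZ are the most abundant genes, and the orange points of NPC2, GRN, CTSF and NEU1 stand clear of the blue ones.

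Glycosidases remove sugars from glycoproteins, glycolipids and glycosaminoglycans, and sulfatases remove sulfate from them; an inherited lack of each of these enzymes leads to storage of its substrate. Of the 16, 12 rose and 2 fell, where 18.9% of all tested genes were called higher and 19.3% lower. NEU1 (chromosome 6, 31857659 to 31862906), which removes terminal sialic acid, had 30.7, 26.8 and 23.4 CPM under PBS and 60.4, 58.7 and 51.8 under cisplatin. The lowest cisplatin library was well above the highest PBS library, and the log2 fold change was 1.09 ± 0.11 (edgeR adjusted p = 2.7e-05). The sulfatase ARSA, which acts on sulfatide, went from 13.3, 11.4 and 12.6 to 23.1, 19.3 and 26.9 CPM (0.91 ± 0.13, edgeR adjusted p = 3.3e-04). GLB1, the β-galactosidase whose activity is used as a marker of senescent cells, went from 29.4, 28.5 and 26.6 to 47.2, 46.9 and 38.3 CPM (0.65 ± 0.10, edgeR adjusted p = 5.0e-04). In ARSA and GLB1, too, no cisplatin library fell within the PBS range. GLB1 mRNA is not a measure of that activity.

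HEXA, the α subunit of hexosaminidase A, had 67.1, 60.2 and 57.9 CPM under PBS and 97.5, 96.5 and 92.2 under cisplatin (0.63 ± 0.080, edgeR adjusted p = 1.3e-04). GAA, the acid α-glucosidase that breaks down glycogen and the most abundant enzyme of this group by TPM, had 154, 136 and 160.3 CPM under PBS and 222, 195 and 227 under cisplatin (0.52 ± 0.086, edgeR adjusted p = 6.8e-04). Both were higher in all 3 cisplatin libraries. On log2(TPM + 1), limma did not call GAA (0.34, adjusted p = 0.114); over the alternatives that test for any change its adjusted p ran from 3.0e-08 to 0.114. The other 7 that rose were IDUA, FUCA1, GUSB, GLA, GALNS, MAN2B1 and MANBA, between 0.30 and 0.61 on the log2 scale. IDUA, which cuts iduronic acid from heparan and dermatan sulfate, reached 37.6, 33.3 and 51.7 CPM in the cisplatin libraries from 26.8, 28.1 and 26.8, so replicate 3 was the highest. It shares 13.4% of its exonic bases with SLC26A1 on the opposite strand, at 5.51 CPM under PBS and 4.77 under cisplatin.

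FUCA1, MAN2B1, GALNS and MANBA were closest to the threshold. Without cisplatin replicate 1, edgeR called none of these 4: FUCA1 (adjusted p = 0.0529), MAN2B1 (0.0609), GALNS (0.120) and MANBA (0.105). GALNS was also lost without cisplatin replicates 2 (0.0544) or 3 (0.114) and without PBS replicates 1 (0.0793) or 2 (0.112). MANBA was lost without PBS replicates 1 (0.116) or 2 (0.0514) and without cisplatin replicate 2 (0.108).

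ARSB, a sulfatase of dermatan and chondroitin sulfate, went the other way: 13.1, 13.0 and 13.0 CPM under PBS and 7.87, 8.82 and 8.35 under cisplatin. All 3 cisplatin libraries were lower, and it fell by 0.64 on the log2 scale (± 0.12; edgeR adjusted p = 0.00153). NAGLU, of heparan sulfate breakdown, had 48.8, 48.5 and 46.1 CPM under PBS and 39.9, 40.0 and 43.2 under cisplatin (-0.22 ± 0.081, edgeR adjusted p = 0.0496). Its groups did not overlap, yet the call was lost whichever library was left out: the adjusted p was 0.107 without PBS replicate 1, 0.0939 without PBS 2, 0.0556 without PBS 3, 0.163 without cisplatin 1 or cisplatin 2, and 0.0624 without cisplatin 3. The range of its adjusted p over the alternatives was 0.0230 to 0.163, and it was also lost with DESeq2 (0.135). IDS and SGSH, further enzymes of heparan sulfate breakdown, did not pass (-0.15 and 0.15). IDS stood at 33.5 ± 0.882 CPM under PBS and 30.3 ± 2.59 under cisplatin, and it overlaps over 16.5% of its exonic bases with the same-strand gene ENSG00000241489, which averaged 5.95 and 11.0 CPM and rose by 0.92 (edgeR adjusted p = 0.00109). IDS is uncertain for that reason.

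Of the 9 genes of lipid handling, 5 rose (55.6%) and 0 fell, beside 18.9% and 19.3% of all tested genes. NPC2 binds cholesterol in the lumen and hands it to the membrane protein NPC1 for export. NPC2 (chromosome 14, 74476192 to 74494177) had 48.2, 48.9 and 35.8 CPM under PBS and 95.7, 97.3 and 94.2 under cisplatin (1.12 ± 0.11 on the log2 scale, edgeR adjusted p = 2.4e-05). NPC1 had 37.4, 30.6 and 37.3 CPM under PBS and 31.9, 31.4 and 32.0 under cisplatin. Its groups overlapped (-0.14 ± 0.097, edgeR adjusted p = 0.273), and its fold had a 95% interval from 0.783 to 1.05, wholly below that of NPC2, 1.84 to 2.55.

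GRN, the precursor of the granulins, travels to lysosomes with prosaposin (PSAP), the precursor of the saposins that present sphingolipids to their enzymes. GRN (chromosome 17, 44345086 to 44353102) had 155, 132 and 140.3 CPM under PBS and 297, 279 and 283 under cisplatin (1.01 ± 0.078, edgeR adjusted p = 6.1e-06). PSAP, second in TPM among the 46, went from 558, 498 and 547 to 831, 809 and 716 CPM (0.56 ± 0.081, edgeR adjusted p = 3.2e-04). For GRN and PSAP alike the lowest cisplatin library exceeded the highest PBS library. The acid sphingomyelinase SMPD1, which makes ceramide, went from 14.7, 11.2 and 10.3 to 20.5, 19.4 and 18.3 CPM (0.70 ± 0.14, edgeR adjusted p = 0.00184). The ganglioside activator GM2A rose by 0.54, from 29.4 ± 2.10 to 42.9 ± 4.01 CPM (SD, n = 3).

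PPT1, which removes palmitate from proteins, was the most abundant of the 46 genes at 399 TPM. It had 701, 654 and 678 CPM under PBS and 736, 749 and 662 under cisplatin, with overlapping groups (0.079 ± 0.075, edgeR adjusted p = 0.428) and a 95% interval of the fold from 0.944 to 1.18. PPT1 shares 23.4% of its exonic bases with CAP1 on the opposite strand, itself at 777 and 812 CPM, so its level is uncertain. The acid ceramidase ASAH1 (-0.084) and the acid lipase LIPA (0.064) did not pass either. ASAH1, which takes apart the ceramide that SMPD1 makes, had 55.8 ± 4.22 CPM under PBS and 52.8 ± 2.32 under cisplatin, and the 95% interval of its fold, 0.831 to 1.07, lay below that of SMPD1, 1.33 to 2.00.

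Of the 6 membrane proteins, 1 rose (16.7%, near the 18.9% of all tested genes) and 0 fell (beside 19.3%). CD63, a tetraspanin of late endosomes, lysosomes and exosomes, had 163, 159 and 140.1 CPM under PBS and 203, 231 and 226 under cisplatin. No cisplatin library fell within the PBS range (0.52 ± 0.082, edgeR adjusted p = 5.4e-04). LAMP1 (chromosome 13, 113297241 to 113323672), whose promoter stretch is shown above, had 148, 113 and 143 CPM under PBS and 146, 156 and 138 under cisplatin. PBS replicate 2 was the lowest and the groups overlapped (0.12 ± 0.099, edgeR adjusted p = 0.350). LAMP2, needed for fusion with autophagosomes, stood at 131 ± 2.51 and 139 ± 6.78 CPM, and SCARB2, the carrier of glucocerebrosidase, at 128 ± 4.54 and 136 ± 1.76. The calcium channel MCOLN1 stood at 36.9 ± 3.28 and 37.0 ± 2.23 CPM, and CLN3, mutated in juvenile Batten disease, at 40.0 ± 2.65 and 45.4 ± 3.48 (SD, n = 3 in each case). The upper limits of the 95% intervals of the folds were 1.26 for LAMP1, 1.18 for LAMP2, 1.18 for SCARB2, 1.16 for MCOLN1 and 1.30 for CLN3. Increases of the size of CTSF or NPC2 thus lay outside these intervals. With the length correction described below, LAMP2 (0.21, edgeR adjusted p = 0.0206) and SCARB2 (0.26, 0.00970) were called higher, making 3 of 6, while on log2(TPM + 1) both differences were below 0 (LAMP2 -0.099, SCARB2 -0.020) and limma called neither.

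**Figure D3:**
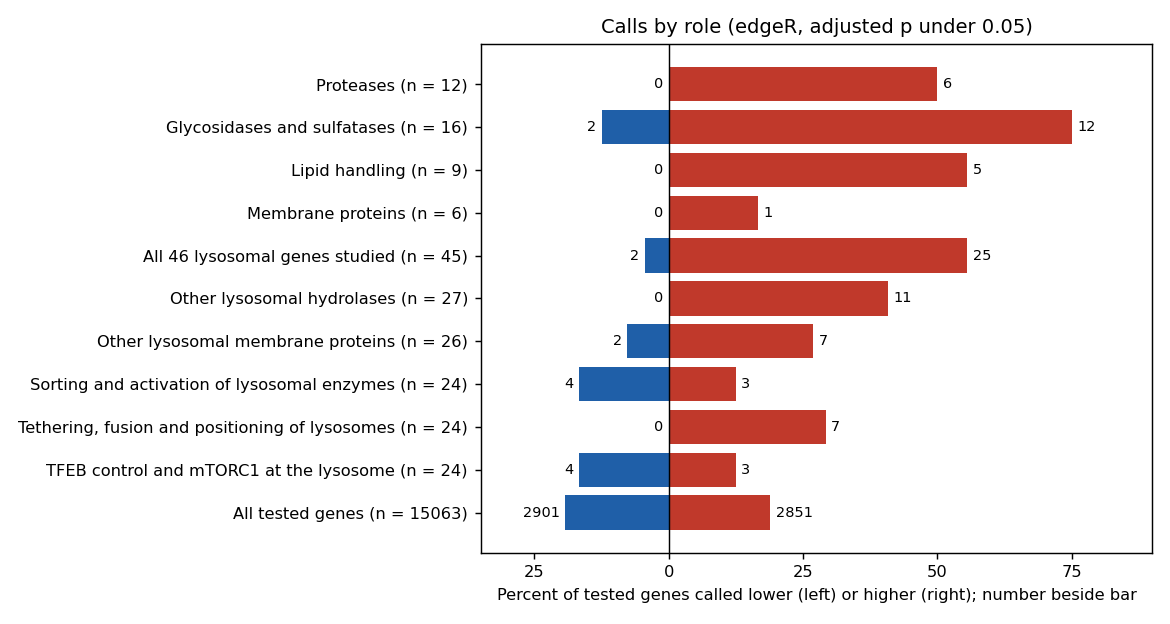
Percent of tested genes called higher (red, right of 0) or lower (blue, left of 0) under cisplatin by edgeR, for each role, for further lists of lysosomal genes and for all tested genes, with the number of genes beside each bar. Glycosidases and sulfatases have the longest red bar, 12 of 16 genes, and the membrane proteins the shortest of the roles shown, 1 of 6; the difference between roles was not tested.

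Summed over genes, the 16 glycosidases and sulfatases held 363, 326 and 397 TPM under PBS and 480, 447 and 449 under cisplatin. The 9 lipid handling genes held 964, 902 and 1052 TPM under PBS and 1379, 1341 and 1191 under cisplatin, and the 13 proteases 458, 443 and 520.1 against 601, 564 and 581. The 6 membrane proteins held 454, 418 and 473 TPM under PBS and 514, 563 and 514 under cisplatin, with CD63 as the largest part. For each of these 4 sums the cisplatin libraries lay above the PBS libraries. The ratio of the protease, glycosidase and sulfatase sum to the membrane protein sum was 1.81, 1.84 and 1.94 under PBS and 2.10, 1.80 and 2.00 under cisplatin, so by this measure the groups overlapped.

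Long transcripts were lower and short ones higher under cisplatin in these libraries: over all tested genes the log2 fold change dropped by 0.152 with each doubling of transcript length. The tested lysosomal genes had a median length of 2186 bases against 2360 for all tested genes. When a smooth trend on length was removed from each library, 25 lysosomal genes were called higher and 2 lower, with a median of 0.28, while 17.1% of all tested genes were higher and 16.7% lower. Of those 25, 22 were also called without the correction; CTSZ, GALNS and LGMN dropped out (edgeR adjusted p = 0.180, 0.0665 and 0.0503), and LAMP2, SCARB2 and TPP1 came in. NPC2, the shortest of the genes, had a log2 fold change of 0.87 after the correction. TPM divides each gene by its own length within a library and does not remove a trend across genes. Limma on log2(TPM + 1) called 15 higher and 2 lower, with 8.02% of all tested genes higher and 11.0% lower. Of those 15, 14 were also called by edgeR on counts and the other was CTSH (0.57); the 11 not called on TPM were CTSO, CTSZ, LGMN, GAA, FUCA1, GALNS, IDUA, MAN2B1, MANBA, GM2A and TFE3. DESeq2 called 21 higher, all among the 25, and missed CTSO (adjusted p = 0.123), GALNS (0.143), MANBA (0.0768) and TFE3, where 13.4% of the genes it tested were higher.

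**Figure D4:**
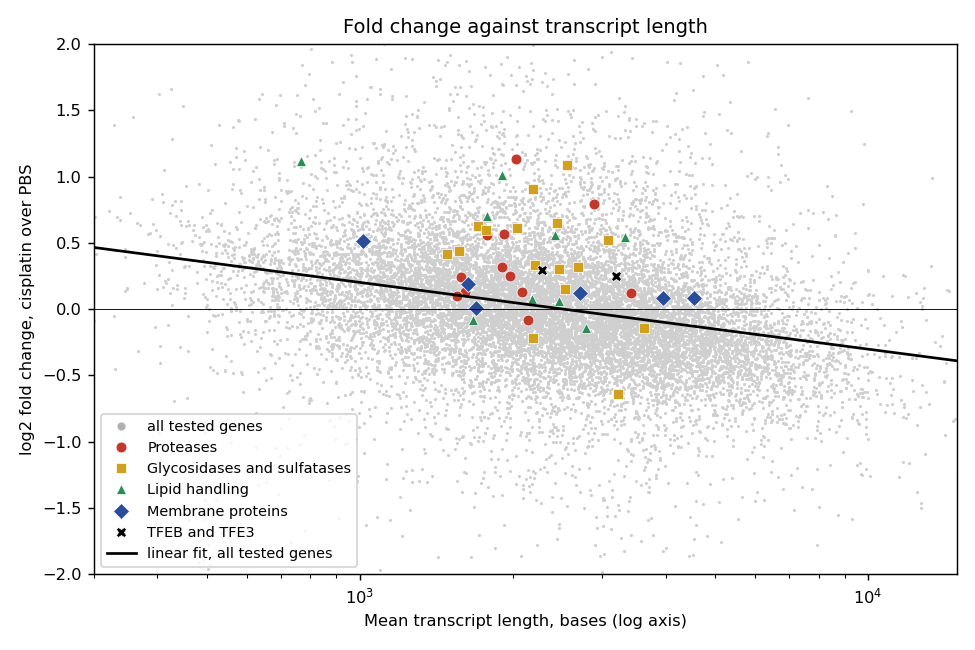
Log2 fold change (cisplatin over PBS) against mean transcript length on a log axis; grey points are all tested genes, coloured symbols the lysosomal genes by role, and the black line a linear fit to all tested genes. Most lysosomal genes lie above the line, with ARSB the furthest below it; 126 tested genes fall outside the axes.

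The genes called higher by edgeR and under every alternative that tests for any change numbered 14: CTSA, CTSD, CTSF, NEU1, GLA, GLB1, GUSB, HEXA, ARSA, NPC2, PSAP, SMPD1, GRN and CD63. The share of all tested genes called in every such setting was not counted, so this number has no background to be read against. Against a stricter null of a 1.5-fold change, edgeR's glmTreat called CTSF, NEU1, NPC2 and GRN, 4 of 45, and 0 lower; of all tested genes 2.02% were called higher and 1.18% lower. At an unadjusted glmTreat p under 0.05 the number lower was also 0, while edgeR without the stricter null called 2 lower and DESeq2 1.

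Further lysosomal genes, listed apart from the 46, were examined for context. Of 28 other hydrolases 27 were tested, 11 rose (40.7%) and 0 fell, beside 18.9% and 19.3% of all tested genes. The median was 0.25 on the log2 scale. At an unadjusted edgeR p under 0.05 the number lower was 1 (HGSNAT, -0.32), and with DESeq2 the number called lower was 0. PRCP, a lysosomal carboxypeptidase, went from 91.9, 84.1 and 91.1 to 165, 146 and 143 CPM (0.77 ± 0.080, edgeR adjusted p = 3.7e-05), and the phospholipase PLA2G15 from 21.2, 17.8 and 19.2 to 33.6, 33.4 and 28.8 (0.72 ± 0.11, 3.2e-04). Neither gene's groups overlapped. Limma on log2(TPM + 1) called 5 of this list higher: PRCP, PLA2G15, CTSV, HYAL1 and NEU4.

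Of 27 other membrane proteins 26 were tested, 7 rose (26.9%) and 2 fell (7.69%), with a median of 0.11. The shares of all tested genes were 18.9% and 19.3%. The nucleoside transporter SLC29A3 went from 6.25, 5.26 and 5.37 to 14.0, 12.3 and 10.7 CPM (1.13 ± 0.15, edgeR adjusted p = 1.8e-04), and LITAF from 30.9 ± 0.927 to 48.4 ± 3.77 (SD, n = 3). The sialic acid exporter SLC17A5 fell by 0.46 (edgeR adjusted p = 0.00634; 0.0773 by limma on log2(TPM + 1)) and TMEM192 by 0.36 (0.0135). TMEM192 was not called without cisplatin replicate 1 (0.0544) or 2 (0.0518), with DESeq2 (0.0572), with the length correction (-0.21, 0.107), with an effective length offset (-0.15, 0.403) or on log2(TPM + 1) (0.349), and without cisplatin replicate 1 the list had 3 higher and 1 lower.

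The machinery that tags and sorts lysosomal enzymes had few calls: of 24 tested genes 3 rose and 4 fell, or 12.5% and 16.7%, near the 18.9% and 19.3% of all tested genes, with a median of -0.00895. With an effective length offset 0 were called higher and 1 lower. GNPTAB, which encodes the enzyme that builds the mannose 6-phosphate tag, had 87.9, 94.0 and 91.4 CPM under PBS and 74.7, 74.0 and 69.2 under cisplatin (-0.33 ± 0.074, edgeR adjusted p = 0.00426); limma on log2(TPM + 1) did not call it (-0.14, adjusted p = 0.499). The sorting receptor SORL1 fell by 0.32 (0.00575), but its difference was 0.047 after the length correction. The retromer subunit VPS29 rose by 0.31 and the adaptor subunit AP1S1 by 0.32; neither was called after that correction (edgeR adjusted p = 0.631 and 0.234). The other gene that rose was GNPTG (0.28), a further subunit of the tagging enzyme, and the other 2 that fell were the adaptor subunits AP1G1 (-0.27) and AP3S1 (-0.21). GNPTG was lost with the length correction (0.137), with DESeq2 (0.0691), without PBS replicates 1 (0.140) or 2 (0.0660) and without cisplatin replicates 1 (0.0729) or 3 (0.197). AP1G1 was lost with the length correction (-0.093, 0.305) and without cisplatin replicate 2 (0.0704). AP3S1 was lost whichever library was left out (0.0533 to 0.133) and with DESeq2 (0.0823). With the length correction 2 genes of this list were called higher and 2 lower. The 2 higher were SORT1 (0.47, edgeR adjusted p = 0.00101) and AP1B1 (0.28, 0.0115), neither of which was called without it.

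Among genes that control TFEB or bring mTORC1 to the lysosome, 24 of 25 were tested, 3 rose and 4 fell, again 12.5% and 16.7% beside 18.9% and 19.3% of all tested genes, with a median of 0.00671. LAMTOR1 and LAMTOR5, subunits of the scaffold that holds mTORC1 on the lysosome, rose by 0.44 (edgeR adjusted p = 0.00201) and 0.42 (0.00198); LAMTOR5 was not called after the length correction (0.302). The third was LAMTOR4 (0.31), with 0.017 after the length correction; it was also lost without PBS replicate 3 (0.0934) and without cisplatin replicates 1 (0.0518) or 3 (0.101). PPP3CB, a catalytic subunit of calcineurin, the phosphatase that activates TFEB, had 26.8, 28.1 and 29.1 CPM under PBS and 18.0, 18.3 and 16.7 under cisplatin (-0.67 ± 0.095, edgeR adjusted p = 2.7e-04). XPO1, which exports proteins including TFEB from the nucleus, had 448, 461 and 476 CPM under PBS and 365, 324 and 346 under cisplatin (-0.42 ± 0.073, 9.0e-04). All 3 cisplatin libraries were below the PBS libraries for PPP3CB and XPO1. The other 2 that fell were FNIP2 (-0.66) and MTOR itself (-0.24, edgeR adjusted p = 0.0488); FNIP2 was not called after the length correction (-0.37, 0.0545). MTOR was lost without PBS replicates 1 (0.146) or 3 (0.140), without cisplatin replicates 1 (0.0630), 2 (0.159) or 3 (0.143) and with the length correction (0.985), and its adjusted p ran from 0.00743 to 0.995 over the alternatives. With the length correction the list again had 3 higher and 4 lower. RRAGC (0.20, edgeR adjusted p = 0.0322) and RRAGD (0.33, 0.0262) came in higher, and RRAGB (-0.54, 0.0238) and MLST8 (-0.30, 0.00538) lower. Upper quartile scaling gave 6 higher and 3 lower.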

How the data were processed

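RNA from 3 PBS and 3 cisplatin libraries was sequenced; alignment used STAR 2.7.9 and genome build hg38, per the submitters' processing notes. The authors deposited, per the file headers, one table per library with an expected count (estimated count), TPM, FPKM, transcript length and effective length for each gene; FPKM was not used. The quantifier's version, annotation release and use of strand were not given in the sources used here, so reads of overlapping genes, antisense ones included, cannot be told apart.

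Expected counts were rounded. Genes passing edgeR's filterByExpr (minimum count 10, minimum total 15) numbered 15063. Counts were scaled by TMM and tested with edgeR 4.0.16 (glmQLFit, glmQLFTest; R 4.3.3), cisplatin against PBS, with Benjamini-Hochberg adjustment over all tested genes. CPM values are TMM-scaled, and standard errors are the log2 fold change over the square root of F. TPM was tested with limma 3.58.1 on log2(TPM + 1), where the pseudocount understates changes of low genes. DESeq2 1.42.0 was an alternative. The scripts were checked on simulated data, and no libraries held identical values.

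Symbols matched 61399 of 61552 gene identifiers and GENCODE 29 positions 58352, in the same build. Exonic overlap of at least 10% affected 10 of the 46 genes: CTSA, CTSD, IDUA, IDS, PPT1, MAN2B1, CLN3, NAGLU, TPP1 and HEXA. MAN2B1 shares 13.1% with the same-strand ENSG00000269242. That gene had 0, 58 and 11 counts under PBS and 10, 11 and 135 under cisplatin. CLN3 shares 25.2% with the same-strand ENSG00000261832, at no more than 11 counts in any library. The members and the lists (other hydrolases, other membrane proteins, sorting, TFEB control, cystatins, tethering, and markers of macrophages, fibroblasts, endothelial, epithelial and squamous cells) were chosen with earlier results of these data known. Full values are given, per role, for the called genes with the largest changes (3 higher, 2 lower), the 2 most abundant genes, and TFEB, TFE3, LAMP1 and CTSD, and per further list for the 2 called genes each way with the smallest adjusted p. Other genes named from small counts, or beside these, were chosen after their values were seen. With 3 against 3 libraries no exact permutation test of a single gene can go below 0.10, so none was used. Alternatives were scaling by RLE, by upper quartile or by total count, no filter, at least 50 counts in 3 libraries, a replicate block, leaving out each library, an effective length offset, a loess trend on length (span 0.5), glmTreat against 1.5-fold, limma-voom, TPM and DESeq2.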

Additional observations from a re-analysis of the deposited data

How the results depend on the processing

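The count of lysosomal genes called higher, 25, was 4 under glmTreat and 15 on log2(TPM + 1), 17 to 23 when 1 library was left out (17 without cisplatin replicate 1), and 20 to 26 under the remaining alternatives. The count called lower, 2, was 1 under RLE, upper quartile and total count scaling, with no filter or a minimum of 50 counts, with the replicate block, with DESeq2, with limma-voom and whichever library was left out, and 0 under glmTreat; ARSB remained in all but glmTreat. The median log2 fold change, 0.30, was 0.19 on log2(TPM + 1) and ran from 0.26 (without PBS replicate 2) to 0.33 with 1 library left out. The percent of all tested genes called higher and lower was 10.4 and 10.4 with no filter, 2.02 and 1.18 under glmTreat, and 8.02 and 11.0 on log2(TPM + 1), and 13.6 to 18.0 and 13.1 to 17.0 with 1 library left out.

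Signs turned for the genes that follow, and the cause was not tested. CTSK was -0.23 to 0.084 with 1 library left out (0.084 without PBS replicate 2), 0.33 with the effective length offset and 0.18 on log2(TPM + 1). CTSL was -0.024 with the replicate block and the length trend correction, -0.021 with the correction alone and -0.016 on log2(TPM + 1). ASAH1 was 0.00435 with the effective length offset, LIPA -0.057 and SCARB2 -0.020 on log2(TPM + 1), and LAMP2 -0.014 with the offset and -0.099 on log2(TPM + 1). MCOLN1 was -0.060 to 0.067 with 1 library left out (-0.060 without PBS replicate 3, -0.033 without cisplatin replicate 2), -0.014 with the offset, -0.090 with the block and the correction, -0.094 with the correction and -0.097 on log2(TPM + 1). SORL1 was 0.049 with the block and the correction and 0.047 with the correction. Among the cell type markers, on log2(TPM + 1), THY1 was -0.000329 and KRT6A -1.32, against 1.49 and 0.25 on counts. KRT6A had 36.3 TPM in PBS replicate 1, with 15 counts, and 0.95 to 1.47 TPM in every other library.

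Deviations of libraries numbered alike correlated at 0.0658, 0.123 and -0.0760. PBS replicates 1 and 2 correlated best with the cisplatin library of the same number, and PBS replicate 3 with cisplatin replicate 1 (0.130). Correlations this small do not settle whether the replicate numbers pair the libraries. With the replicate block 24 genes were called higher, all among the 25 (TFE3 was lost, adjusted p = 0.0545), and 1 lower (NAGLU was lost, 0.0649). CTSO and TFEB rest on few reads.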

Other observations

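Of 11 listed cystatins and other inhibitors of lysosomal proteases, 3 were tested, 2 rose and 0 fell. The shares of all tested genes were 18.9% and 19.3%. Cystatins block cysteine cathepsins. CST1, a secreted cystatin, had 217, 223 and 177 CPM under PBS and 536, 536 and 639 under cisplatin (1.47 ± 0.10 on the log2 scale, edgeR adjusted p = 3.3e-06). CST3, cystatin C, had 33.5, 36.8 and 28.9 CPM under PBS and 57.6, 57.6 and 63.0 under cisplatin (0.85 ± 0.099, edgeR adjusted p = 7.2e-05). In both genes all 3 cisplatin libraries were above the PBS libraries, and both were called under every alternative that tests for any change. The cytosolic inhibitor CSTB was not called (0.040, edgeR adjusted p = 0.782), but with the length trend correction it was called lower (-0.26, 0.0258). The other 8 inhibitors were too low to test. CST1 has close paralogs, so its counts may include reads that fit more than 1 gene.

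Of 24 tested genes of lysosome tethering, fusion and positioning, 7 rose (29.2%, beside 18.9% of all tested genes) and 0 fell (beside 19.3%). At an unadjusted edgeR p under 0.05 the number lower was 1 (STX8, -0.34), and with DESeq2 the number called lower was 0. The SNARE protein VAMP8 had 25.5, 21.5 and 18.4 CPM under PBS and 46.3, 48.4 and 43.9 under cisplatin (1.10 ± 0.11, edgeR adjusted p = 3.2e-05). VPS18, of the HOPS tethering complex, had 33.1, 29.1 and 35.8 CPM under PBS and 44.9, 47.4 and 44.9 under cisplatin (0.49 ± 0.094, edgeR adjusted p = 0.00176). Neither gene's groups overlapped. The small GTPase RAB7A, which recruits the tethers, was not called (-0.059, edgeR adjusted p = 0.525). Without PBS replicate 1 or without cisplatin replicate 3 the number called higher was 4, and on log2(TPM + 1) limma called VAMP8 alone higher and STX8 lower.

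The deposited transcript length of a gene is an average over its isoforms, weighted by their estimated abundance. Among the 46 lysosomal genes it differed by more than 10% between the group means in 5. CTSH was shorter under cisplatin, at 1506, 1793 and 1634 bases against 2521, 2079 and 2322 under PBS, and CTSK was shorter too, at 1962, 1842 and 1872 against 2555, 2622 and 2031. CTSC averaged 1524 bases under cisplatin and 1704 under PBS. IDUA and MANBA were longer under cisplatin, at 1862 against 1685 bases and 2609 against 2335. In all 5 genes, which were picked for this difference, the libraries of the groups did not overlap in length. The share of all tested genes with such a difference was not counted. CTSH and CTSK had mean TPM values of 3.08 and 3.22, the lowest of the 5. With an effective length offset edgeR called CTSH (0.81, adjusted p = 0.0389) and CTSC (0.33, 0.0400) higher and did not call IDUA (0.0567) or MANBA (0.463). The difference in length was not tested.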
